A study of Saccharomyces cerevisiae with 9 samples.

Results

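The genes of the 26S proteasome and of its transcriptional regulator RPN4 were followed in yeast recovering from a freeze. The members were listed by gene symbol, 34 in all, and 33 of them were found in both deposited value tables, out of 5189 genes there. They comprised 14 genes of the core particle, 9 of the base, RPN10, 8 of the 9 genes listed for the lid, and RPN4. The remaining lid gene, SEM1, matched no symbol and is not analysed here. Of the 33 genes, 29 had a value on all 9 arrays.

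Recovering cells were sampled 15, 30 or 60 min after thawing, with 3 arrays per time, and each array set them against cells taken before freezing. All cells were Saccharomyces cerevisiae strain S288C, a laboratory strain, grown in rich YPD medium at 30 °C to an absorbance (A660) of 1.0. From a culture of 600 ml, a portion of 400 ml was frozen at -80 °C for 1 week with no cryoprotectant and thawed in a water bath for 25 min, after which 100 ml was taken at each time. The cells before freezing were a portion of 200 ml of the unfrozen culture. The labels give no viability, so a change of mRNA within cells and a change in the share of cells that kept their RNA cannot be told apart in these bulk samples. No unfrozen culture incubated for the same times was analysed here. The series describes the 3 arrays of a time as independent biological samples.

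The values were log2 ratios, taken here as the recovering cells divided by the cells before freezing, since the labels place the recovering cells in the first channel. The direction is not stated in the tables, the dyes were never exchanged, and every sign below would turn if the ratio ran the other way. Across genes, each of the 36 pairs of arrays had a correlation above 0. An array held values for 2603 to 5087 genes, and the SD of its log2 ratios over all genes was 0.444 to 1.02, with the 2 highest on replicates 1 and 2 at 60 min. Replicate 1 of each time was hybridised to one array platform and replicates 2 and 3 to another. The number of arrays limits the precision.

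The 26S proteasome degrades proteins tagged with ubiquitin. Its core particle is a stack of alpha and beta rings, with the proteolytic sites inside on beta subunits. The regulatory particle caps it: the base holds a ring of ATPases that unfold the substrate and the subunits that bind ubiquitin, and the lid removes the ubiquitin. In yeast, the activator Rpn4 binds a shared promoter element upstream of most subunit genes, and Rpn4 is itself a short-lived substrate of the proteasome, so that its level falls when proteasomes are plentiful. Heat and protein damage are known to raise RPN4 transcription through factors that include Hsf1 and Yap1.

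At 60 min after thawing, core particle genes were higher than before freezing, base and lid genes were mixed, and RPN4 mRNA was lower. Of 33 members tested, 13 rose and 2 fell (limma, Benjamini-Hochberg adjusted p under 0.05 over all genes tested), where 15.6% of all 2952 genes tested rose and 17.5% fell. The 13 were 9 of the 14 core genes, 2 of the 9 base genes, RPN10, and 1 of 8 lid genes. The 2 that fell were RPN4 and the lid gene RPN5. The median log2 ratio of the members was 0.32 and that of all genes tested -0.06.

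**Figure D1:**
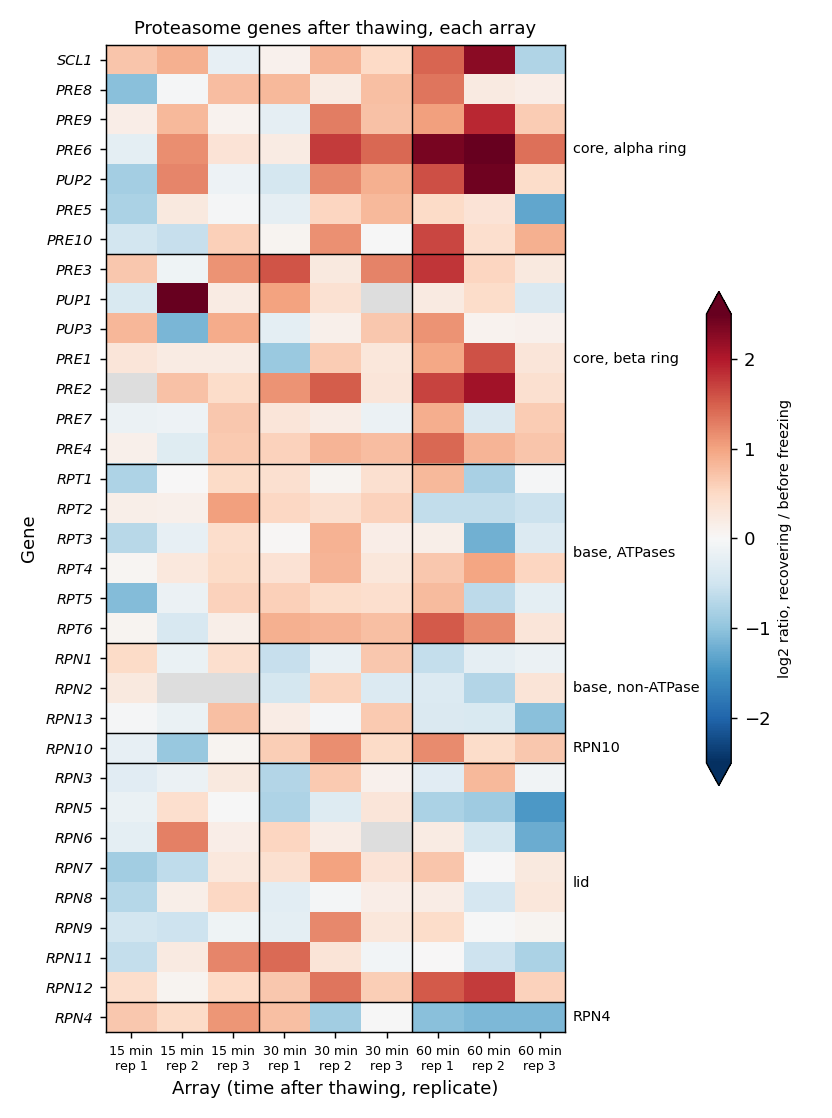
Log2 ratio (recovering over before freezing) of each of the 33 genes (rows, grouped by subcomplex) on each of the 9 arrays (columns, by minutes after thawing and replicate). Red is higher after thawing, blue is lower, grey has no value, and colours stop at ±2.5. Core genes are mostly red at 60 min, and RPN4, in the bottom row, is blue there on all 3 arrays.

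RPN4 (YDL020C) encodes the activator. The 3 arrays of 15 min gave log2 ratios of 0.67, 0.48 and 1.11, those of 30 min gave 0.75, -0.86 and -0.01, and those of 60 min gave -1.05, -1.13 and -1.12. All arrays were thus above 0 at the earliest time, the signs were mixed at 30 min, and all were below 0 at 60 min. Among the genes on each array these values stood at percentiles 87, 72.3 and 98.1 for 15 min, but at percentiles 13.4, 8.4 and 6.1 for 60 min.

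The mean of RPN4 at 15 min was 0.75 ± 0.29 (limma's standard error), which did not pass (adjusted p = 0.192), and the mean at 30 min was -0.04 (adjusted p = 0.962). At 60 min it was -1.10 ± 0.29, a 2.14-fold lower mRNA level than before freezing (limma, adjusted p = 0.00595). The difference between 60 and 15 min was tested on its own and was -1.85 ± 0.42, 3.61-fold (limma, adjusted p = 0.0130). With each array scaled to the same median absolute deviation, RPN4 at 60 min was -0.92 with adjusted p = 0.0511, and the difference from 15 min was -1.86 with adjusted p = 0.102 (limma). On the second platform alone that difference was -1.91 with adjusted p = 0.0857.

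**Figure D2:**
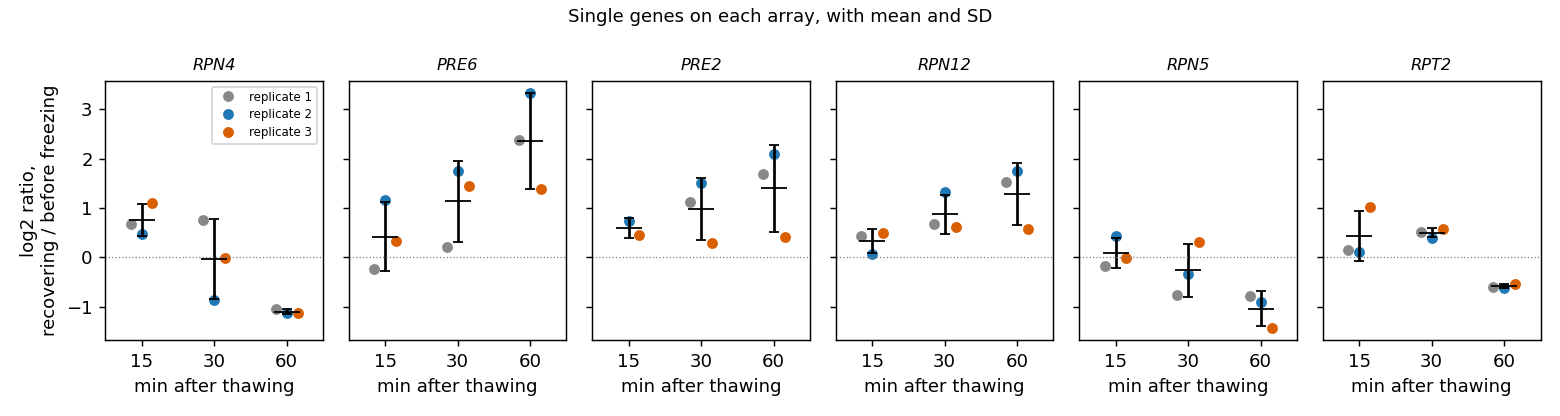
Log2 ratio (vertical axis) of RPN4, PRE6, PRE2, RPN12, RPN5 and RPT2 at 15, 30 and 60 min after thawing. Points are single arrays coloured by replicate, bars are the mean and SD of the arrays with a value (2 for PRE2 at 15 min, otherwise 3). RPN4 and RPT2 are above 0 on all 3 arrays at 15 min and below 0 on all 3 at 60 min, and PRE6 reaches 3.33 at 60 min.

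Of the alpha ring, 5 of 7 genes rose at 60 min, where 15.6% of all genes tested rose. PRE6 (YOL038W) led all members. Its log2 ratios were -0.24, 1.15 and 0.34 (15 min), 0.21, 1.75 and 1.45 (30 min), then 2.37, 3.33 and 1.38 (60 min). It was the highest member on every array at 60 min, and there it averaged 2.36 ± 0.34, 5.13-fold above the level before freezing (limma, adjusted p = 1.57e-05). It had also risen by 60 min relative to 15 min, by 1.94 ± 0.49 or 3.84-fold (limma, adjusted p = 0.0205).

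PUP2, another alpha subunit, had log2 ratios of 1.62, 2.43 and 0.46 at 60 min and averaged 1.5 ± 0.37 (limma, adjusted p = 0.00288). PRE9, whose product is the alpha subunit that yeast can live without, had 1.03, 1.89 and 0.63 and averaged 1.18 ± 0.31 (adjusted p = 0.00502, limma). PRE10 had 1.67, 0.42 and 0.88 and averaged 0.99 ± 0.31 (adjusted p = 0.0169, limma). These genes were above 0 on all 3 arrays. SCL1 passed with 0.98 ± 0.37 (adjusted p = 0.0418, limma) although its arrays disagreed in sign, at 1.45, 2.25 and -0.76. Its array values are given because of that disagreement, a choice made after they were seen. PRE8 (0.57) and PRE5 (-0.16, the lowest core gene) did not pass.

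Of the beta ring, 4 of 7 genes rose, where 15.6% of all genes tested rose. The beta subunits with proteolytic sites are encoded by PRE2, PRE3 and PUP1. PRE2 had log2 ratios of 1.68, 2.10 and 0.41 at 60 min and averaged 1.40 ± 0.32, 2.63-fold (limma, adjusted p = 0.00163). PRE3 averaged 0.85 ± 0.32 (adjusted p = 0.0433, limma). PUP1 averaged 0.11 ± 0.37 and did not pass. Among the others, PRE4 had 1.43, 0.86 and 0.69 with a mean of 0.99 ± 0.28 (limma, adjusted p = 0.00838). PRE1 had 0.97, 1.59 and 0.31 with a mean of 0.95 ± 0.31 (adjusted p = 0.0187, limma). PUP3 (0.44) and PRE7 (0.40) did not pass.

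In the base, the 6 RPT genes encode the ATPases. RPT6 had log2 ratios of 1.53, 1.19 and 0.30 at 60 min and rose by 1.01 ± 0.28, the highest base gene (limma, adjusted p = 0.00839). RPT4 had 0.67, 0.98 and 0.54 and rose by 0.73 ± 0.27 (limma, adjusted p = 0.0386). The other ATPase genes had means of 0.00 (RPT1), -0.04 (RPT5), -0.47 (RPT3) and -0.59 (RPT2) and did not pass. Of these, RPT1, RPT3 and RPT5 each had their highest value at 60 min on replicate 1 (0.82, 0.15 and 0.79) and their lowest on replicate 2 (-0.80, -1.21 and -0.66), so their means join arrays of opposite sign.

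RPT2, whose product takes part in opening the gate of the core, had 1 sign on the 3 arrays of each time. RPT4 and RPN12 did so as well, always above 0. RPT2 had log2 ratios of 0.15, 0.12 and 1.03 (15 min), 0.52, 0.40 and 0.57 (30 min), then -0.61, -0.61 and -0.54 (60 min). All its arrays at 15 and 30 min were above 0 and all at 60 min were below. How many of all genes turned sign in this way was not counted. The mean at 60 min had adjusted p = 0.0993 (limma), and the differences of 60 min from 15 min (-1.02, adjusted p = 0.109) and from 30 min (-1.08, adjusted p = 0.323) did not pass either.

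The non-ATPase base genes had means of -0.25 (RPN2, a scaffold), -0.32 (RPN1, a docking site for ubiquitin and shuttle proteins) and -0.59 (RPN13, a ubiquitin receptor and the lowest base gene) at 60 min. Of these, 0 of 3 passed, where 33.2% of all genes tested did. RPN1 and RPN13 were below 0 on all 3 arrays. RPN10, a ubiquitin receptor at the junction of base and lid, differed from them: it had 1.18, 0.46 and 0.67 and rose by 0.77 ± 0.29 (limma, adjusted p = 0.0392).

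In the lid, 1 of 8 genes rose (12.5%) and 1 fell (12.5%), where 15.6% of all genes tested rose and 17.5% fell. RPN12 (YFR052W), whose product joins the lid last in assembly, had log2 ratios of 0.43, 0.06 and 0.50 (15 min), 0.68, 1.33 and 0.61 (30 min), then 1.53, 1.74 and 0.58 (60 min). It was above 0 on all 9 arrays and averaged 1.28 ± 0.29 at 60 min (limma, adjusted p = 0.00142). RPN5 (YDL147W), a scaffold subunit of the lid, had -0.17, 0.42 and 0.00 (15 min), -0.76, -0.33 and 0.31 (30 min), then -0.78, -0.90 and -1.44 (60 min). Its mean at 60 min was -1.04 ± 0.28, 2.06-fold lower than before freezing (limma, adjusted p = 0.00680). RPN11, the gene of the deubiquitinating enzyme of the lid, had a mean of -0.44 and its partner RPN8 one of 0.02. RPN3 (0.15), RPN6 (-0.49), RPN7 (0.32) and RPN9 (0.18) did not pass either.

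**Figure D3:**
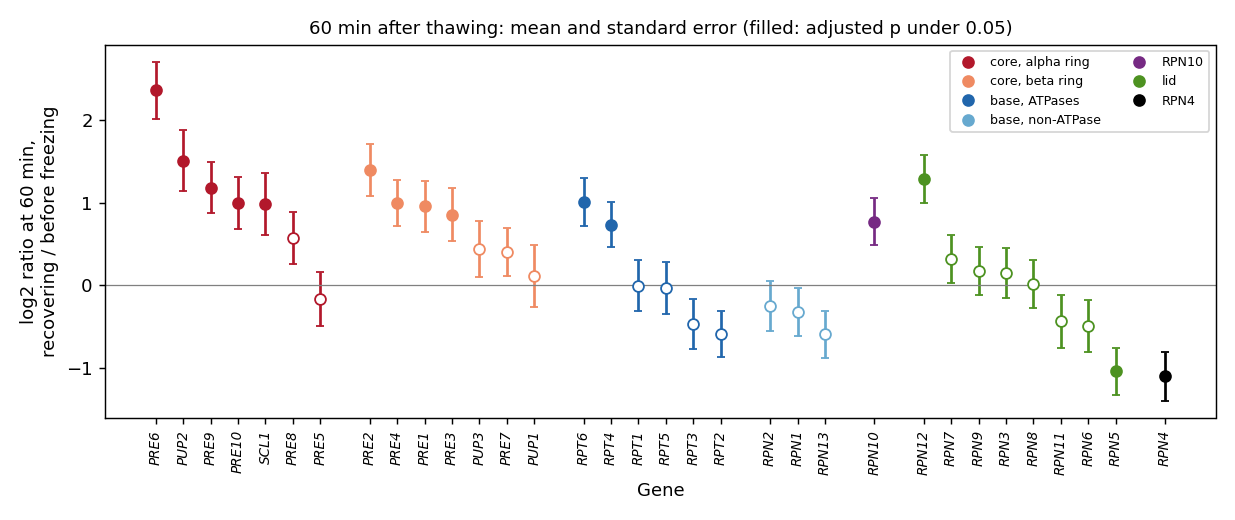
Mean log2 ratio (recovering over before freezing) of each gene at 60 min after thawing, with limma's standard error, ordered within each subcomplex. Filled points passed at an adjusted p under 0.05: 9 of 14 core genes, RPT6 and RPT4 of the base, RPN10, RPN12 and RPN5 of the lid, and RPN4. PRE6 is the highest at 2.36 and RPN4 the lowest at -1.10.

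By sign alone, 15 of 33 members were above 0 on all 3 arrays at 60 min and 5 were below 0 on all 3, against 26.8% and 32.6% of all genes tested. The 15 included 10 of the 14 core genes but 2 of the 9 base genes and 2 of the 8 lid genes. The 5 were RPN1, RPN13, RPT2, RPN5 and RPN4.

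Of the 15 members that passed at 60 min, PRE2, PRE6, RPN12 and RPN4 passed whichever single array of 60 min was left out. Without replicate 1 of 60 min, 7 members passed, and SCL1 (0.75, adjusted p = 0.261), PRE10 (0.65, adjusted p = 0.217), PRE3 (0.39, adjusted p = 0.471), PRE1 (0.95, adjusted p = 0.0834), PRE4 (0.77, adjusted p = 0.103), RPT4 (0.76, adjusted p = 0.104), RPT6 (0.75, adjusted p = 0.118) and RPN10 (0.56, adjusted p = 0.247) did not in limma. Without replicate 2 again 7 passed, and SCL1 (0.34, adjusted p = 0.594), PRE9 (0.83, adjusted p = 0.114), PUP2 (1.04, adjusted p = 0.0826), PRE1 (0.64, adjusted p = 0.239), PRE3 (1.01, adjusted p = 0.0708), RPT4 (0.61, adjusted p = 0.223), RPT6 (0.92, adjusted p = 0.0675) and RPN10 (0.92, adjusted p = 0.0655) did not. Without replicate 3, 11 passed, and PRE10 (1.04, adjusted p = 0.0504), RPT4 (0.82, adjusted p = 0.0653), RPN10 (0.82, adjusted p = 0.0854) and RPN5 (-0.84, adjusted p = 0.0710) did not. All these means kept their sign. Of 11 settings other than leaving out an array, SCL1 passed in 2, PRE3 in 5, and RPN10 and RPT4 in 7 each. With platform as a term in the fit 12 members rose and 2 fell, and on the second platform alone 5 rose and 2 fell. Each time had the same split of platforms, so the platform term could change the p-values but not the means. With each array scaled to the same median absolute deviation 7 rose and 1 fell. Of all genes tested, 33.2% passed in the main fit, and 16.5%, 17.6% and 26.4% without replicates 1, 2 and 3 of 60 min. The share was 33.8% with the platform term, 15.5% on the second platform alone and 18.2% with the scaling.

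The subcomplexes were also averaged on each array over the members with a value on all 9 arrays, which were 12 core, 8 base and 7 lid genes. At 60 min the core mean was 1.35, 1.13 and 0.29, the base mean 0.30, -0.21 and -0.19, and the lid mean 0.26, 0.10 and -0.16. The core mean exceeded the base mean by 1.05, 1.35 and 0.47 on the 3 arrays (0.96 ± 0.44, SD, n = 3), and the lid mean by 1.09, 1.03 and 0.45 (0.86 ± 0.35, SD, n = 3). At the earlier times, core minus base was 0.17, 0.28 and -0.12 (15 min) and -0.17, 0.34 and 0.17 (30 min). Every array of 60 min thus lay above every array of 15 and 30 min in core minus base, which is a description with no test. Core minus lid was 0.32, 0.25 and 0.05 (15 min) and 0.06, 0.16 and 0.41 (30 min). It was thus above 0 on all 9 arrays, and replicate 3 of 60 min (0.45) lay close to replicate 3 of 30 min (0.41). Base minus lid lay on both sides of 0 at each time (0.04, -0.32 and -0.02 at 60 min).

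**Figure D4:**
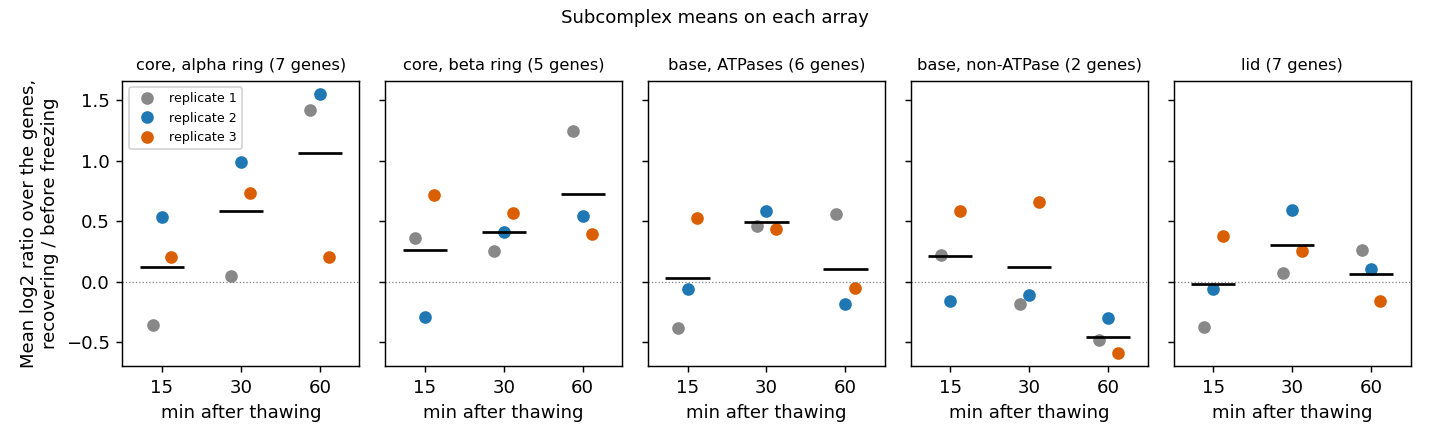
Mean log2 ratio on each array (points, coloured by replicate) over the genes of each subcomplex that have a value on all 9 arrays, at 15, 30 and 60 min after thawing, with the mean of the 3 arrays as a line. The alpha and beta rings of the core have their highest mean at 60 min (1.06 and 0.73), and the ATPases of the base have theirs at 30 min (0.49, against 0.11 at 60 min).

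Within the base, the ATPase genes averaged 0.46, 0.58 and 0.43 on the arrays of 30 min, and 0.56, -0.19 and -0.05 on those of 60 min. The values at 30 min lay close together and those at 60 min were spread, with replicate 1 apart from the other arrays. Of the genes with a value on all 9 arrays, the mean was highest at 60 min for 9 of 12 core genes and at 30 min for the other 3. It was highest at 30 min for 5 of 8 base genes and at 60 min for 2, RPT4 and RPT6. Of 7 lid genes, 3 were highest at 30 min and 3 at 60 min. The same count was not made over all genes, so these counts have no baseline. The SD over all genes was highest on replicates 1 and 2 of 60 min.

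At 30 min no member passed, 0 of 31 in limma, where 4.34% of 3320 genes tested did in either direction. At an unadjusted p under 0.05 there were 7 members, or 22.6%, where 18.3% of all genes tested had such a p in either direction. All 7 had a mean above 0, whereas the 609 such genes among all tested were 263 above 0 and 346 below. The smallest p-values were those of the core genes PRE6 (1.13 ± 0.34, adjusted p = 0.0549), PRE3 (1.02 ± 0.32, adjusted p = 0.0655) and PRE2 (0.98 ± 0.32, adjusted p = 0.0705). PRE3 had 1.56, 0.24 and 1.24 on the 3 arrays, and PRE2 1.13, 1.51 and 0.30. The other 4 were RPN12 (0.87), RPT6 (0.83), RPN10 (0.75) and PRE4 (0.73).

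The sign at 30 min was mostly positive. The mean was above 0 for 26 of 31 members, with a median of 0.48 against -0.08 for all genes tested, and the medians of core, base and lid were 0.55, 0.35 and 0.41. On all 3 arrays 15 members were above 0 and 0 were below, against 19.3% and 25.5% of all genes tested. The 15 were all 6 ATPase genes, 6 of 13 core genes (SCL1, PRE8, PRE6, PRE3, PRE2 and PRE4), RPN7 and RPN12 of the lid, and RPN10. RPN2 (-0.07), RPN1 (-0.03), RPN5 (-0.26), RPN8 (-0.05) and RPN4 were the members with a mean below 0. With each array scaled to the same median absolute deviation 6 members passed at 30 min, where 10.1% of all genes tested did. With array weights 5 passed, where 13.9% of all genes did, and with the arrays of 30 min fitted alone 5 passed, where 9.43% did. PRE3, PRE6, RPN12 and RPT6 were among them each time.

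At 15 min no member passed in limma, 0 of 31, where 1.16% of 2148 genes tested did. At an unadjusted p under 0.05 there were 2, RPN4 and PUP1, or 6.45%, where 17.5% of all genes tested had such a p. PUP1 averaged 0.82 ± 0.37 (limma, adjusted p = 0.252) and rested on 1 array, with 2.63 on replicate 2 against -0.38 and 0.21 on the others. The next smallest p was that of PRE3 (0.57 ± 0.32, adjusted p = 0.387). The median of the members was 0.16 and that of all genes tested -0.05, and the medians of core, base and lid were 0.21, 0.06 and 0.03. Apart from the core median, which kept its sign without replicate 3, the signs of these medians rested on that array. The median of the members was -0.19, 0.03 and 0.45 on the 3 arrays. Without replicate 3 the median of the fitted means was -0.10 for the members, -0.13 for the base and -0.20 for the lid. The lid median was also below 0 without replicate 2 (-0.07). On all 3 arrays 6 members were above 0 (PRE1, PRE9, RPT2, RPT4, RPN12 and RPN4) and 1 was below (RPN9), against 15.1% and 20.8% of all genes tested.

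Between times, PRE6 was the 1 member of 31 higher at 60 than at 15 min and RPN4 the 1 member lower in limma, where 2.41% of 1871 genes tested were higher and 3.37% lower. PRE6 kept a positive difference under all alternatives, but did not pass without replicate 1 of 15 min (1.61, adjusted p = 0.106), replicate 3 of 15 min (1.90, adjusted p = 0.0682), replicate 1 of 60 min (1.93, adjusted p = 0.0599) or replicate 2 of 60 min (1.46, adjusted p = 0.112). On the second platform alone 0 members passed, and with each array scaled to the same median absolute deviation 0 passed as well, PRE6 with adjusted p = 0.170. Of all genes tested, 0.219% and 0.0534% passed in these fits. RPN4 passed whichever single array was left out, with adjusted p-values up to 0.0495. The third smallest p was that of RPN10 (1.13 ± 0.40, adjusted p = 0.0891), which had -0.21, -0.95 and 0.07 at 15 min. Without replicate 2 of 15 min 3 members passed, without replicate 3 of 60 min 4, and without any other single array of these times 1. Of all genes tested, 1.82% passed without the first of these arrays, 6.04% without the second, and 1.37% to 3.35% without any other.

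From 30 to 60 min no member passed in limma, 0 of 31, and 0.0407% of 2457 genes tested passed. At an unadjusted p under 0.05 there were 6 members (19.4%), where 10.9% of all genes tested had such a p. The smallest p-values were those of RPT2 (-1.08 ± 0.39), RPN4 (-1.06 ± 0.42, adjusted p = 0.365) and PRE6 (1.23 ± 0.49, adjusted p = 0.365). From 15 to 30 min no member passed, 0 of 29, and neither did any gene, 0% of 1853. At an unadjusted p under 0.05 there were 3 members (10.3%), where 2.81% of all genes tested had such a p. The smallest p-values were those of RPN10 (1.12 ± 0.40), RPN7 (0.99 ± 0.41) and RPT6 (0.89 ± 0.40), each with adjusted p = 0.972. The comparisons between times share arrays with those against the cells before freezing.

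Of other genes of the pathway, 33 were listed and 30 found. At 60 min 7 of 20 tested (35%) rose and 2 (10%) fell in limma, with a median of 0.23. Of all genes tested 15.6% rose and 17.5% fell, with a median of -0.06. Of the assembly chaperones 3 of 6 rose: NAS6, which helps build the base (1.57 ± 0.31, adjusted p = 0.000476), and ADD66 (0.96, adjusted p = 0.0131) and IRC25 (0.80, adjusted p = 0.0269), which help build the core. NAS6 had 1.94, 2.33 and 0.45 on the 3 arrays. Of the genes of proteasome-associated proteins 3 of 7 rose: SPG5, needed for proteasomes in stationary phase (1.36 ± 0.30, adjusted p = 0.00126), FUB1 (0.88, adjusted p = 0.0241) and CUZ1 (0.82, adjusted p = 0.0460). Of the ubiquitin shuttle and Cdc48 genes 0 of 3 passed, with means of -0.01 to 0.05. Those 3 were DDI1, CDC48 and UFD1. Others of that list lacked an array at 60 min and were not tested: DSK2 had 1.55 and 0.88, SHP1 1.63 and 0.68, NPL4 0.93 and 0.04, and RAD23 0.01 and 0.06 on the 2 arrays with a value.

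Among genes that act on Rpn4 (2 tested) or on its transcription (2 tested), 2 fell and 1 rose at 60 min. Of all genes tested, 17.5% fell and 15.6% rose. MUB1, which works with the ligase Ubr2 in the ubiquitination of Rpn4, had -1.22, -0.58 and -1.32 and fell by 1.04 ± 0.30 on the log2 scale (limma, adjusted p = 0.0104). RAD6, the conjugating enzyme of that ligase, had a mean of -0.71 and did not pass (adjusted p = 0.0623, limma). Of the activators of RPN4 transcription, YAP1 had -0.82, -0.52 and -1.0 and fell by 0.78 ± 0.28 (limma, adjusted p = 0.0348), and HSF1 had 0.49, 1.44 and 0.66 and rose by 0.87 ± 0.29 (limma, adjusted p = 0.0234). YAP1 and RPN4 were thus both below 0 on all 3 arrays, and HSF1 was above 0 on all 3. At 15 and 30 min, 1.16% and 4.34% of all genes tested passed. None of the listed pathway genes did so at 15 min (0 of 15) or at 30 min (0 of 19) in limma. At an unadjusted p under 0.05 there were 2 (13.3%) at 15 min and 6 (31.6%) at 30 min, where 17.5% and 18.3% of all genes tested had such a p.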

How the data were processed

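Poly(A) RNA was labelled with Cy5 (recovering cells) or Cy3 (cells before freezing) and hybridised to 9 two-colour arrays. The deposited values are log2 ratios normalized by the authors with LOWESS within each array on spots of flag value 0, per the labels. The lowest value equals the log2 of 0.01, which gave the log base. Not given in the sources used here were the background correction and the image software. Intensities are not in these tables, so spots near background could not be set aside. Spots were named by the symbols of the platform annotation (5297 and 5291 of 6272 spots per platform, of which 5293 and 5287 matched RefSeq R64). No proteasome gene had more than 1 spot.

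A single limma fit (version 3.58.1, R 4.3.3) took all 9 arrays, with 1 mean for each time and no platform or replicate term. A gene was tested, two-sided, when all 3 arrays of each time compared had a value. P-values were adjusted (Benjamini-Hochberg) over all genes tested in each of 6 comparisons, and passed under 0.05. Missing values were not filled in: PRE2 lacked 1 array and RPN2 2 arrays at 15 min, and PUP1 and RPN6 1 array each at 30 min. The fit was tested on simulated data. Whether arrays shared 1 culture before freezing is not in the labels. If arrays of the same time did, the spread of that culture is left out of the tests against 0. If arrays of different times with the same replicate number did, the tests between times ignored that pairing. A fit with a replicate block is given below.

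The members and all gene lists were chosen with earlier results of these data known. Every member that passed in any comparison is named, with array values for RPN4 and up to 12 subunits with the smallest adjusted p at 60 min. In a comparison with under 3 such members, the 3 with the smallest unadjusted p are named, as are the highest and lowest core, base and lid gene at 60 min and the pathway genes that passed. A search of promoters for the Rpn4 element had been planned and was not run, and no sequence was used here. Alternatives were scaling, array weights, robust spread, missing values, platform, replicate block and leaving out each array.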

Additional observations from a re-analysis of the deposited data

Results flagged for a closer look

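The ratio to the cells before freezing differed between 60 and 15 min for PRE6, by 1.94 on the log2 scale (limma, adjusted p = 0.0205, above 0 on 3 of 3 arrays at 60 min and on 2 of 3 at 15 min). It also differed for RPN4, by -1.85 (limma, adjusted p = 0.0130, below 0 on 3 of 3 arrays at 60 min and above 0 on 3 of 3 at 15 min). RPT2 was below 0 on every array at 60 min and above 0 on every array at 15 and at 30 min. Its difference was -1.02 between 60 and 15 min (adjusted p = 0.109) and -1.08 between 60 and 30 min (adjusted p = 0.323), and neither passed in limma. The number of all genes with such a turn of sign was not counted.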

How the results depend on the processing

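Of 1656 values recomputed under alternatives, 1547 kept their side of the threshold (genes), moved by less than the spread between replicates (medians) or stayed within 1.5 times (counts). Robust spread, the platform term, the replicate block and the fit of the compared times alone left each mean and median unchanged by construction. Under these settings only p-values and counts could change. Counts have no sign. Of the values other than counts, 50 turned their sign, and of the single genes among them 0 had passed in either fit. Medians had no test. The 50 include the median of the members at 15 min (-0.10 without replicate 3), the lid median at 15 min (-0.03 with array weights) and RPN4 at 30 min (0.37 without replicate 2). At 30 min, where 0 members passed, 6 passed with arrays scaled to 1 median absolute deviation, 5 with array weights and 5 with the arrays of 30 min fitted alone. Of all genes tested, 10.1%, 13.9% and 9.43% passed in these fits. The base median at 30 min (0.35) was 0.41 with array weights, 0.42 over genes with values on all 9 arrays, 0.44 on the second platform alone, and 0.40 to 0.45 leaving out 1 array. At 60 min, where 15 passed, 8 passed with the scaling, 7 on the second platform alone, and 7 to 11 leaving out 1 array. The shares of all genes tested were 33.2% in the main fit, 18.2%, 15.5%, and 16.5% to 26.4%. RPN4 at 60 min was -0.92 with the scaling (adjusted p = 0.0511). Between 60 and 15 min, where 2 passed, 0 passed with the scaling and 0 on the second platform alone, and 1 to 4 leaving out 1 array. RPN4 was -1.86 (adjusted p = 0.102) and -1.91 (adjusted p = 0.0857) there. Of all genes tested between 60 and 15 min, 5.77% passed in the main fit. The share was 0.0534% with the scaling, 0.219% on the second platform alone, and 1.37% to 6.04% leaving out 1 array. The second platform alone and the fits without an array hold fewer arrays, and the cause of the other changes was not tested.

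Arrays with the same replicate number deviated together with correlations of 0.022 to 0.526 over 9 pairs of arrays (1657 genes), against -0.607 to 0.296 for 18 pairs with different numbers. In 15 of 18 cases the best match had the same number, which is a hint from the data only, since the labels do not tie the numbers to a shared culture. With the replicate block 5 members passed at 30 min (PRE2, PRE3, PRE6, RPN12 and RPT6) and 8 between 60 and 15 min (PRE6, PUP2, PRE10, RPT6 and RPN10 higher, RPN4, RPN5 and RPT2 lower). At 60 min 15 passed. With the block, 12.1% of all genes tested passed at 30 min, 15.6% between 60 and 15 min, and 41.8% at 60 min. The members tested were 31, 31 and 33 in these comparisons. The motif search with and without a mismatch was not run. Without intensities, the signal over background behind a ratio is unknown.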
